A study of Homo sapiens with 16 samples.

Results

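The mitochondrial genome was described through its 37 genes, all those among 60669 genes in the deposited tables whose symbol starts with MT-. They comprise 13 mRNAs, 2 ribosomal RNAs (rRNAs) and 22 transfer RNAs (tRNAs). RNA came from HMC3, a human microglial cell line, either wild type (WT) or labelled knockout of METTL3, the gene for the catalytic subunit of the enzyme that writes m6A on nuclear-made RNA. Of 16 libraries, 5 per genotype were Smart-seq2 libraries of polyadenylated RNA, used here by way of 1 comparison in the authors' deposited table, which does not name its library type and is taken to be theirs. The other 6, 3 per genotype, were made with a directional kit after depletion of rRNA, and have a TPM value (a gene's share of the transcripts after correction for its length, summing alike in every library) for each gene and library. How the knockout was made, and whether its cells come from 1 clone or its replicates from separate cultures, is not given in the sources used here, so p-values measure only the spread between these samples, which may be technical.

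Human mitochondrial DNA is copied into RNA from both strands as long transcripts that span many genes. In the classical model the tRNAs lie between the other genes as punctuation, and enzymes that cut at the tRNA ends release the mRNAs and rRNAs, after which most mRNAs receive short poly(A) tails. The mRNAs encode core subunits of respiratory complexes I, III and IV and of ATP synthase, and the rRNAs and tRNAs serve the ribosome inside the organelle.

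In the GENCODE 29 annotation of GRCh38, 28 of the 37 genes lie on the plus strand of chrM and are called heavy-strand genes below, after the promoter that transcribes them. The other 9 lie on the minus strand and are called light-strand genes: the complex I mRNA MT-ND6 and the tRNAs MT-TQ, MT-TA, MT-TN, MT-TC, MT-TY, MT-TS1, MT-TE and MT-TP. The genes are packed closely. Of the 36 boundaries between neighbours on the map, 20 had no base between the genes and 5 had overlapping genes, and 14 of the 15 mRNA and rRNA genes had a tRNA gene as a neighbour. MT-ND6 is 35.6% G and 7.05% C in the RNA sense, whereas the 12 heavy-strand mRNAs hold 6.28% to 16.2% G and 29.5% to 36.0% C.

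Among the tRNAs, MT-TP (proline) held most of the reads and MT-TM (methionine) was the one with reads in every WT library and none under the knockout label. Their sequences are shown for that reason, in the RNA sense from 5′ to 3′, with T for U and the anticodon in capitals. MT-TP lies at chrM:15956-16023 on the minus strand and MT-TM at chrM:4402-4469 on the plus strand (GRCh38, GENCODE 29). The anticodon was located as the triplet complementary to a proline or methionine codon, in the middle of a 7-base loop closed by a stem in which 5 of 5 bases pair.
MT-TP: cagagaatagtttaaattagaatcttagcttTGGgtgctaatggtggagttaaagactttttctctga
MT-TM: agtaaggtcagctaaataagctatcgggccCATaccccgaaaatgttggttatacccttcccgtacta

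The ATP synthase genes MT-ATP8 and MT-ATP6 share 46 bases, which lie on one transcript, so reads in them cannot be assigned to either gene alone. The shared bases are in capitals below, within chrM:8507-8592 on the plus strand, because MT-ATP8 is the 1 heavy-strand mRNA that did not pass the test while MT-ATP6 did.
MT-ATP8 and MT-ATP6 overlap: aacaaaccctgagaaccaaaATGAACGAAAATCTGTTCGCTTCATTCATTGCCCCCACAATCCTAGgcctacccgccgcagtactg

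Some facts about the libraries bear on every value. METTL3 mRNA stood at 31.2, 31.6 and 25.4 TPM in WT and at 39.2, 39.96 and 42.7 TPM under the knockout label (limma adjusted p = 0.106), so mRNA does not check that label and the libraries are called knockout-labelled. Their depth, recovered from the TPM values as whole reads, was 266131 to 487248 reads in WT and 512623 to 1267249 under the knockout label. Knockout-labelled libraries 1 and 2 differed by no more than sampling noise (chi-square 1.02 per degree of freedom over 10120 genes, p = 0.06824) and were averaged as 1 sample, leaving 3 WT and 2 knockout-labelled samples. The libraries differed widely beyond mitochondria: by limma on log2(TPM + 1), with Benjamini-Hochberg adjusted p under 0.05, 22.9% of 14789 tested genes were higher and 12.4% lower under the knockout label, with a median log2 change of 0.41. Summed TPM of 9 fibroblast or mesenchymal markers was 10747 to 13135 in WT and 1541 to 1712 under the knockout label, and 8 of 12 microglia markers (AIF1, C1QA, CX3CR1, ITGAM, P2RY12, PTPRC, SPI1 and TMEM119) were listed at 0 in all 6 libraries. The part of these differences in the mitochondrial values was not tested, and more mitochondria per cell cannot be told apart from more RNA per mitochondrion in such samples.

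The mitochondrial genes separated by RNA class. Of the 37, 24 passed the filter of at least 1 TPM in 3 libraries, and 11 of them were higher under the knockout label, 6 lower and 7 not called. The 11 higher genes were heavy-strand mRNAs, and the 6 lower ones were both rRNAs, the light-strand mRNA MT-ND6 and the tRNAs MT-TP, MT-TM and MT-TW. The WT and knockout-labelled libraries did not overlap for 20 of the 24, against 58.4% of all tested genes, so lack of overlap is common in these data. The 20 were the 13 mRNAs, the 2 rRNAs and 5 tRNAs. Of these tRNAs, MT-TM, MT-TW, MT-TQ and MT-TS1 had at most 10 reads in a library. For MT-TW, MT-TQ and MT-TS1 the lack of overlap rests on what a read is worth in each library. MT-TS1 had 1 read in WT library 3 (86.8 TPM) and 1 in knockout-labelled library 3 (93.6 TPM). MT-TQ had 3 reads in WT library 1 (295 TPM) and 3 in knockout-labelled library 3 (269 TPM). MT-TW had 3 reads in WT library 3 (264 TPM) and 5 in knockout-labelled library 1 (246 TPM). MT-TM passed the filter through WT alone, so it had to differ, and neither its call nor its lack of overlap supports anything. Without it, 5 lower genes remain.

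Summed over the 12 heavy-strand mRNAs, the level was 13686, 12237 and 10505 TPM in the WT libraries and 63897, 64437 and 71937 TPM in the knockout-labelled ones. Every knockout-labelled library lay above every WT library, and the means, 12143 ± 1593 TPM (SD, n = 3) and 68052 ± 5494 TPM (SD, n = 2), differed 5.60-fold. The 2 rRNAs together stood at 15151, 12291 and 16919 TPM in WT and at 692, 802 and 798 TPM under the knockout label, 19.1-fold lower. The ratio of heavy-strand mRNA to rRNA was 0.903, 0.996 and 0.621 in WT and 92.4, 80.3 and 90.2 under the knockout label. Since the classes moved in opposite directions, the total moved less: all 37 genes made up 4.22%, 3.93% and 3.85% of TPM in WT and 6.83%, 6.89% and 7.71% under the knockout label. As a share of recovered reads, the total was 1.34% (95% Wilson interval 1.31 to 1.38), 1.20% (1.16 to 1.24) and 1.26% (1.23 to 1.29) in WT. Under the knockout label it was 2.04% (2.01 to 2.06), 2.06% (2.03 to 2.08) and 2.38% (2.34 to 2.42), and these intervals cover counting error only. No p is given for sums over genes chosen with earlier results known.

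**Figure D1:**
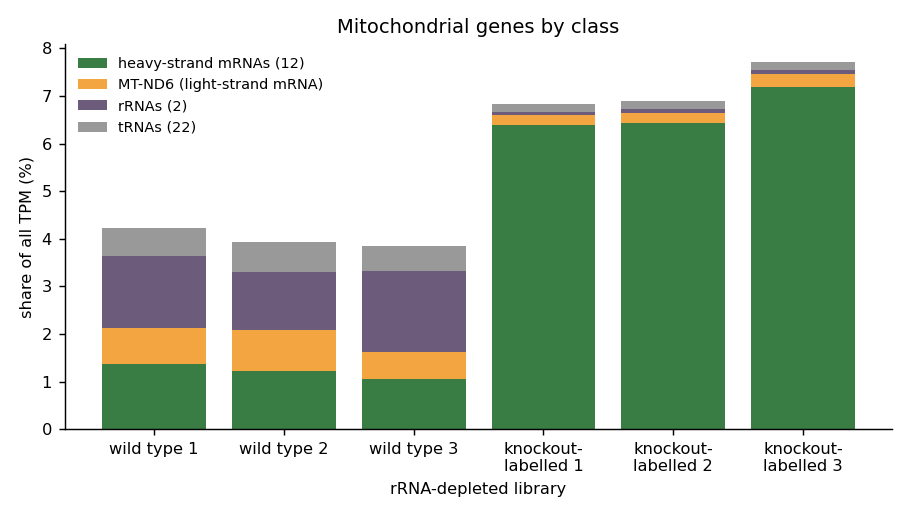
Stacked bars give the share of all TPM (%, y axis) taken by each class of mitochondrial gene in the 3 wild-type and 3 knockout-labelled rRNA-depleted libraries (x axis), with no error bars because each bar is 1 library. The heavy-strand mRNA segment grows from 1.05% to 1.37% in wild type to 6.39% to 7.19% under the knockout label, while the rRNA segment shrinks from 1.23% to 1.69% to 0.0692% to 0.0802%.

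The complex IV mRNAs encode the core of cytochrome c oxidase, the enzyme that passes electrons to oxygen. MT-CO1 (ENSG00000198804, chrM:5904-7445), whose product holds the catalytic centre, stood at 712, 597 and 578 TPM in WT and 6471, 6837 and 6822 TPM under the knockout label. It was the most changed mRNA, 10.7-fold higher, with a log2 change of 3.42 with SE 0.13 (limma adjusted p = 0.000689). MT-CO3 stood at 443, 541.2 and 428 TPM in WT and 4442, 4437 and 4481 TPM under the knockout label, a log2 change of 3.25 with SE 0.13 (limma adjusted p = 0.000689). MT-CO2, whose product receives electrons from cytochrome c, stood at 1522, 1362 and 963 TPM against 5875, 5738 and 6751 TPM. It rose less, by 2.31 on the log2 scale (SE 0.22, limma adjusted p = 0.00261), from the highest WT level of the 3. Summed, the complex IV mRNAs were 7.34-fold higher, against 5.53-fold for the 6 heavy-strand complex I mRNAs and 3.29-fold for ATP synthase. With the light-strand MT-ND6, which held 7319 of the 14117 TPM of complex I mRNA in WT and moved the other way, complex I was 2.83-fold higher.

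MT-CYB, the 1 complex III subunit made in mitochondria, stood at 571, 444 and 462 TPM in WT and at 4612, 4585 and 5037 TPM under the knockout label. The libraries lay far apart, and the log2 change was 3.30 with SE 0.14 (limma adjusted p = 0.000852).

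Complex I, which takes electrons from NADH, has 7 mRNAs here, 6 on the heavy strand. MT-ND1 stood at 1067, 920.1 and 607 TPM in WT and at 7643, 7541 and 8917 TPM under the knockout label, a log2 change of 3.29 with SE 0.26 (limma adjusted p = 0.00182). MT-ND4 had 1275, 1021 and 878 TPM against 7659.5, 7454 and 8956 TPM, and a log2 change of 2.98 with SE 0.19 (limma adjusted p = 0.00124). Both are long genes with at least 85 reads in every library, and neither overlapped between labels. MT-ND2 (795 to 1149 TPM in WT, 5609.9 to 6079.9 TPM under the knockout label) rose by 2.68 on the log2 scale, and MT-ND4L (484 to 620.1 TPM against 3375 to 3611 TPM) by 2.70. MT-ND4L overlaps MT-ND4 by 7 bases, and their ratio kept within 0.393 to 0.551 in all 6 libraries.

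The 2 remaining complex I genes of the heavy strand rose less. MT-ND5 stood at 3022, 2410.1 and 2637 TPM in WT, the highest heavy-strand mRNA there, and at 9323, 9308 and 9958 TPM under the knockout label, the highest mRNA there. Its log2 change was 1.85 with SE 0.15 (limma adjusted p = 0.00182). MT-ND3 stood at 757, 897 and 484 TPM in WT and at 1753, 2050.3 and 2277 TPM under the knockout label, a log2 change of 1.59 with SE 0.28 (limma adjusted p = 0.0117). Without knockout-labelled library 3, which leaves 1 sample with that label, MT-ND3 (limma adjusted p = 0.144), MT-ND5 (0.0505) and MT-CO2 (0.0589) were no longer called, and for each this was the highest adjusted p of any alternative.

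The ATP synthase mRNAs differed from each other. MT-ATP6, whose product is part of the proton channel, stood at 1009, 927 and 659 TPM in WT and at 4986, 5196 and 6079 TPM under the knockout label, a log2 change of 2.71 with SE 0.22 (limma adjusted p = 0.00182). MT-ATP8, which lies just before it and shares the 46 bases printed above, stood at 1539.8, 1799.8 and 1475 TPM in WT and at 1911, 2170.0 and 3057 TPM under the knockout label. The libraries of MT-ATP8 did not overlap, but its log2 change of 0.64 (SE 0.21) did not pass (limma adjusted p = 0.0634), and it exceeded the all-gene median by 0.23. Over the alternatives run the adjusted p was 0.015 to 0.916, and with the trend on GC content removed the log2 change was 0.04. The ratio of MT-ATP8 to MT-ATP6 was 1.53, 1.94 and 2.24 in WT and 0.383, 0.418 and 0.503 under the knockout label. At 36 to 51 WT reads MT-ATP8 rests on fewer reads than MT-ATP6 (61 to 97), and a difference between the 2 changes was not tested.

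MT-ND6 (ENSG00000198695, chrM:14149-14673), the light-strand mRNA, went the other way from all 12 heavy-strand mRNAs. It stood at 7663, 8535 and 5759 TPM in WT and at 2024, 2019 and 2743 TPM under the knockout label. Each WT library lay above each knockout-labelled one, and MT-ND6 fell by 1.62 on the log2 scale (SE 0.23, limma adjusted p = 0.00674), a 3.07-fold drop. The call was lost without knockout-labelled library 3 (log2 change -1.84, limma adjusted p = 0.0877, the highest over the alternatives). MT-ND6 was 7.38, 9.39 and 9.09 times the median heavy-strand mRNA in the WT libraries and 0.382, 0.369 and 0.451 times it under the knockout label. Against MT-ND5, which abuts it on the other strand, the ratio was 2.54, 3.54 and 2.18 in WT and 0.217, 0.217 and 0.275 under the knockout label. The kit keeps strand, but whether the authors' counting used it is not given in the sources used here. If it did not, RNA of either strand at this locus was counted as MT-ND6.

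**Figure D2:**
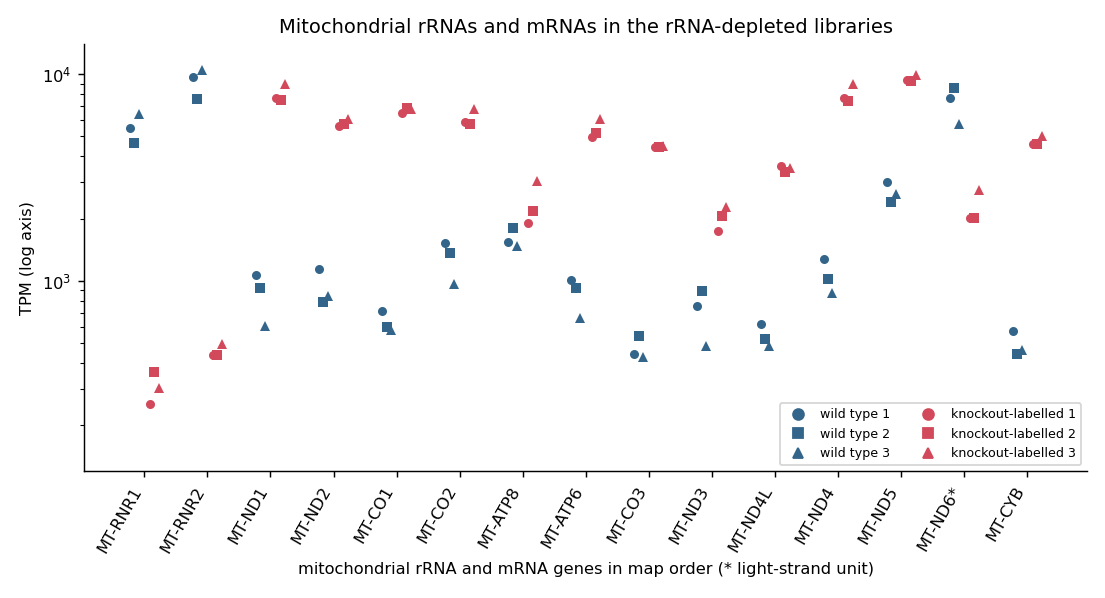
Each point is 1 rRNA-depleted library, with TPM on a log axis (y) for the 2 rRNA and 13 mRNA genes in map order (x), wild type in blue and knockout-labelled in red; marker shape gives the replicate number. Red points lie above blue ones for the 12 heavy-strand mRNAs, by the least for MT-ATP8, and below them for MT-RNR1, MT-RNR2 and MT-ND6.

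The order of the mRNAs by level also differed. In WT, MT-ND6 (median 7663 TPM), MT-ND5 (2637) and MT-ATP8 (1539.8) came first, the first pair each lying clear of the next gene. From MT-ATP8 down to MT-CO3, the lowest at a median of 443 TPM, each gene overlapped the next in its library values, so these neighbours were not separated. Under the knockout label, MT-ND5 (median 9323 TPM), MT-ND4 (7659.5) and MT-ND1 (7643) led, and MT-ATP8 (2170.0), MT-ND6 (2024) and MT-ND3 (2050.3) came last with overlapping values. Spearman's rho between the 2 mean levels was 0.159 across the 13 mRNAs and 0.42 across the 12 heavy-strand ones, as a description across genes that share libraries. The highest heavy-strand mRNA was 5.42 to 6.83 times the lowest in WT and 4.37 to 5.32 times under the knockout label.

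Both rRNAs, which form the small and large subunits of the mitochondrial ribosome, were lower under the knockout label. MT-RNR1 (12S, ENSG00000211459, chrM:648-1601) stood at 5502, 4664 and 6419.8 TPM in WT and at 253, 365 and 305 TPM under the knockout label, from 45 to 127 reads. It fell by 4.16 on the log2 scale (SE 0.16, limma adjusted p = 0.000689). MT-RNR2 (16S, ENSG00000210082, chrM:1671-3229) stood at 9649.9, 7627 and 10499 TPM in WT and at 439, 437 and 493 TPM under the knockout label, and fell by 4.30 (SE 0.17, limma adjusted p = 0.000689). The pair kept a similar ratio of MT-RNR2 to MT-RNR1, 1.64 to 1.75 in WT and 1.20 to 1.73 under the knockout label. These levels are what remained after a step that removes rRNA, and the sources used here do not give its targets or its efficiency in each library. Of 528 rRNA genes outside mitochondria, 27 had a TPM above 0, with a sum of 289, 493 and 608 TPM in WT and 415, 554 and 368 TPM under the knockout label, which overlap. The 3 highest were RNA5SP155 (55 to 418 TPM in WT, 0 to 84.9 under the knockout label), RNA5SP195 and RNA5SP385, all 5S pseudogenes with at most 9 reads in a library. Of the 27, 3 passed the filter, with a median log2 change of -4.57; 0 were higher and 1 was called lower. That gene, RNA5-8SN4, named after its values were seen, had 1 read in each WT library and 0 in the knockout-labelled ones, so it entered through WT alone and both groups lie under the floor of 3 reads. The part of the depletion step in the drop of MT-RNR1 and MT-RNR2 was not tested. Other abundant RNAs without poly(A) tails, chosen after their values were seen, moved both ways: RN7SL1, the RNA of the signal recognition particle, had 39259 ± 9925 TPM (SD, n = 3) in WT and 2389 ± 1142 TPM (SD, n = 2) under the knockout label. RN7SL2 fell as well, with 19159 ± 2856 TPM in WT and 249 ± 166 TPM under the knockout label. 7SK, which holds back transcription elongation, rose, with 38215 ± 2157 and 150935 ± 8136 TPM.

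The tRNA genes, 59 to 75 bases long, were thinly covered. Of 22 tRNA genes, 16 had at least 1 read and 6 (MT-TK, MT-TG, MT-TR, MT-TH, MT-TS2 and MT-TL2, all heavy-strand) had 0 reads in all 6 libraries. The 22 genes held 248 reads in all, of which MT-TP had 137 (55.2%), and no other tRNA had more than 10 reads in a library. One read on a tRNA was worth 36.5 to 175 TPM, so a TPM value there can rest on a single read. In 16 of the 22, no library of either label had more than 3 reads.

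MT-TP had 39, 23 and 36 reads in WT and 10, 23 and 6 reads under the knockout label, at greater depth in libraries 1 and 2. In TPM these were 4062, 3500.2 and 3169 against 493, 926 and 569.8, with no overlap. MT-TP fell by 2.48 on the log2 scale (SE 0.16, limma adjusted p = 0.00125), and stayed called in every alternative run, between -3.43 and -2.29. Like MT-ND6 it is a light-strand gene, and its level was 0.53, 0.41 and 0.55 times that of MT-ND6 in WT and 0.244, 0.459 and 0.208 times it under the knockout label.

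MT-TM had 6, 4 and 10 reads in WT and none in the 3 knockout-labelled libraries, where 3 reads would have been worth at most 285 TPM. Its WT mean of 705 ± 152 TPM (SD, n = 3) rests on those few reads. No p and no size of change is given for MT-TM, because it entered the test through its WT reads alone. MT-TM abuts MT-ND2, which rose. MT-TW, for tryptophan, follows MT-ND2 directly and had 4, 4 and 3 reads in WT and 5, 0 and 1 under the knockout label. Its call (limma adjusted p = 0.0146) rests on averaging knockout-labelled libraries 1 (246 TPM) and 2 (0 TPM), and with the 6 libraries kept separate the adjusted p was 0.148, within a range of 0.00537 to 0.164 over the alternatives. MT-TS1 had 0, 0 and 1 reads in WT and 7, 5 and 1 under the knockout label, and did not pass (limma adjusted p = 0.119). MT-TQ had 3, 4 and 4 reads against 2, 2 and 3 (limma adjusted p = 0.118), and MT-TT had 0, 0 and 4 against 1, 2 and 4 (0.271). Without WT library 3, which held the WT reads of both, MT-TS1 and MT-TT passed. Both then had 0 reads in every remaining WT library and stayed in the fit through their knockout-labelled reads alone. Those calls support nothing, and no p is given for them.

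**Figure D3:**
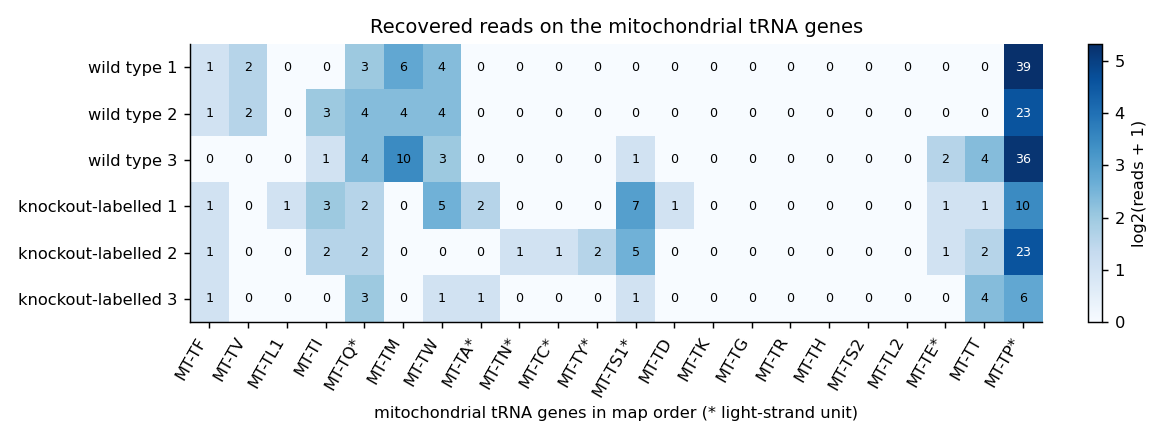
Recovered reads (printed in each cell, shade as log2 of reads + 1) on the 22 mitochondrial tRNA genes in map order (x) in the 6 rRNA-depleted libraries (y). MT-TP holds 6 to 39 reads in a library, no other gene exceeds 10, and MT-TM has reads in the wild-type libraries alone.

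The authors' deposited table of 1 comparison does not state its library type. It was taken as that of the poly(A) libraries because the TPM table is named for the rRNA-depleted ones, and because RNAs without poly(A) tails are scarce in it: 7SK made up 0.00469% and 79 histone genes 0.0306% of the summed mean normalized count of the authors' deposited table, against 9.36% and 4.09% of TPM, which unlike that count is corrected for length, in the other libraries. Every contrast between library types below rests on that assignment. The mitochondrial genes took 7.13% of the summed mean normalized count in the authors' deposited table. The numerator of the log2 fold change is not stated either. A positive value is read as higher under the knockout label, after the name of the authors' deposited table, and on that reading the sign was shared by 91.5% of the 177 genes outside the mitochondrial genome that passed both tests with changes of 1 or more on the log2 scale. The authors' deposited table called 9.55% of 14009 genes with an adjusted p higher and 10.3% lower. Of the 24 mitochondrial genes with an adjusted p in the authors' deposited table, 8 were higher, 3 lower and 13 not called.

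The classes did not separate there as in the rRNA-depleted libraries. In the authors' deposited table both rRNAs were higher, MT-RNR1 with a log2 fold change of 0.72 (SE 0.12, adjusted p = 1.97e-07) and MT-RNR2 with 0.65 (SE 0.12, adjusted p = 7.93e-07). MT-ND6 was higher as well in the authors' deposited table, by 0.44 (SE 0.11, adjusted p = 0.00101). A directional kit is named for the rRNA-depleted libraries alone. The values of MT-ND6 and other light-strand genes in the authors' deposited table may thus count RNA of either strand. The other higher genes in the authors' deposited table were MT-ND1 (0.63), MT-ND2 (0.67), MT-CO1 (0.52), MT-ND4 (0.49) and MT-ND5 (0.55), in log2 fold change. The authors' deposited table thus had changes under 1 on the log2 scale for every mitochondrial mRNA and rRNA, while 10 of the 12 heavy-strand mRNAs moved by 1.85 or more in the rRNA-depleted libraries.

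The 3 genes called lower in the authors' deposited table lie together on the map: MT-ATP8 with a log2 fold change of -0.45 (SE 0.13, adjusted p = 0.00325), MT-CO3 with -0.62 (SE 0.10, adjusted p = 2.27e-08) and MT-ND3 with -0.84 (SE 0.22, adjusted p = 0.00194). MT-ATP6, between MT-ATP8 and MT-CO3, had -0.17 in the authors' deposited table and was not called (adjusted p = 0.086). The remaining heavy-strand mRNAs were not called in the authors' deposited table, where the log2 fold change was 0.18 for MT-CO2 (adjusted p = 0.0917), 0.38 for MT-ND4L (0.122) and -0.10 for MT-CYB (0.358). Of the tRNAs, 9 had an adjusted p in the authors' deposited table and none was called. MT-TP had -0.76 (adjusted p = 0.078) in the authors' deposited table, from a mean normalized count of 14.1. Per kb, the mean normalized count in the authors' deposited table ran from 172 for MT-ND3 to 23200 for MT-RNR2 among mRNAs and rRNAs, and MT-RNR2 alone held 31.7% of the mitochondrial sum. Across the 13 mRNAs, Spearman's rho between the log2 changes of the 2 library types was 0.198, a description across genes. The difference between library types was not tested, since the authors' deposited table holds no value per library.

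**Figure D4:**
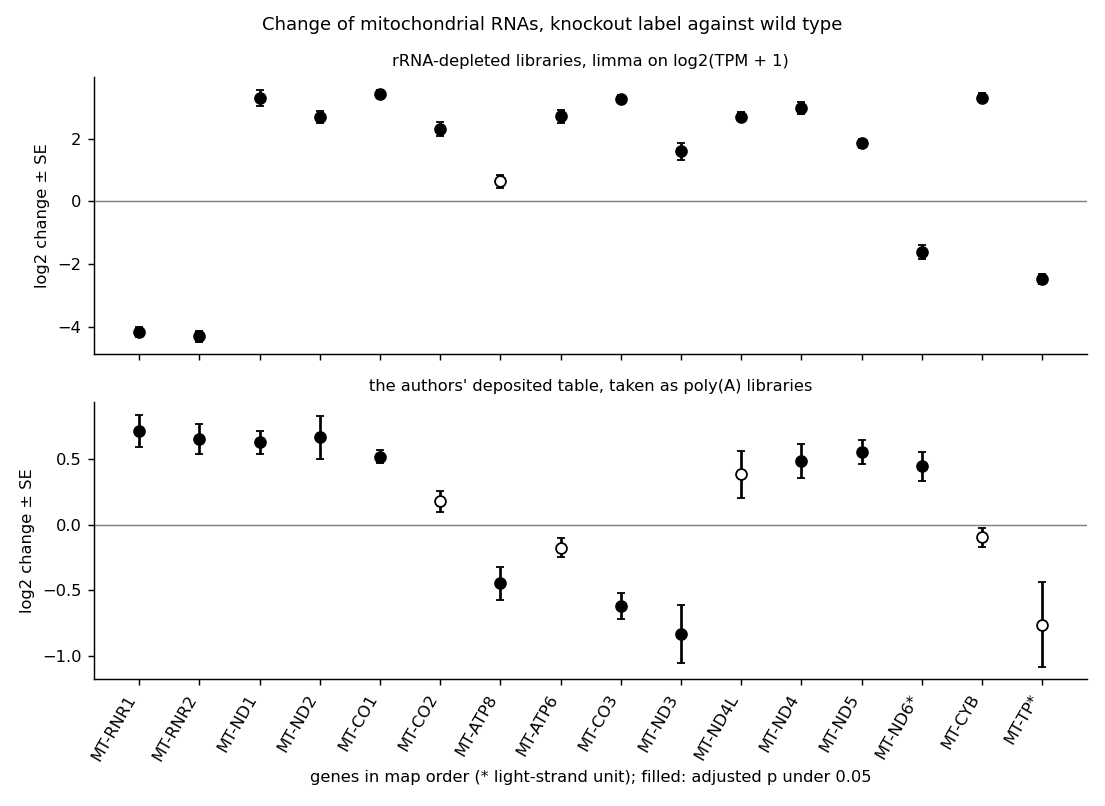
Log2 change ± SE (y), knockout label against wild type, of the mRNAs, the rRNAs and MT-TP in map order (x), for the rRNA-depleted libraries (top, limma on log2(TPM + 1)) and for the authors' deposited table (bottom, a narrower axis); filled points have an adjusted p under 0.05. The top panel has the rRNAs, MT-ND6 and MT-TP below 0. In the bottom panel the rRNAs and MT-ND6 lie above 0, while the stretch from MT-ATP8 to MT-ND3, MT-CYB and MT-TP lie below it.

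Of 44 nuclear genes for mitochondrial transcription and RNA processing, 12 (27.3%) were higher and 4 (9.09%) lower in the rRNA-depleted libraries, near the 22.9% and 12.4% of all tested genes, so the counts are no result about this list. Its median log2 change was 0.62 against 0.41 over all tested genes. LRPPRC, whose protein binds and stabilises mitochondrial mRNAs, had 32.8 ± 2.16 TPM (SD, n = 3) in WT and 82.4 ± 7.95 TPM (SD, n = 2) under the knockout label, and rose by 1.30 on the log2 scale (limma adjusted p = 0.00408). Its partner SLIRP rose by 2.76 (limma adjusted p = 0.0426) from 2 to 7 WT reads, and PNPT1, an RNA-degrading enzyme of mitochondria, by 1.14 (limma adjusted p = 0.00945). POLRMT, the mitochondrial RNA polymerase, had 129, 117 and 103 TPM in WT and 60.8, 64.7 and 85.7 TPM under the knockout label, and fell by 0.65 on the log2 scale (limma adjusted p = 0.0456). FASTK, which acts on MT-ND6 mRNA, fell by 0.85 (limma adjusted p = 0.0117) and TBRG4, of the same family, fell by 1.07 (limma adjusted p = 0.0185). Of these 44 genes, 3 were higher and 3 lower in the authors' deposited table, beside 9.55% and 10.3% of all genes there, so these counts too are no result about this list. LRPPRC (0.47) and PNPT1 (0.52) were among the higher ones and SLIRP (-0.50) among the lower ones in the authors' deposited table.

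Of 78 nuclear genes for respiratory chain and ATP synthase subunits, the partners of the mitochondrial products, 35 (44.9%) were higher and 9 (11.5%) lower in the rRNA-depleted libraries, beside 22.9% and 12.4% of all tested genes. The share of lower genes is near that of all genes, and the median log2 change was 1.11 against 0.41. ATP5F1B, the catalytic subunit of ATP synthase, had 275 ± 27.8 TPM (SD, n = 3) in WT and 1087 ± 19.6 TPM (SD, n = 2) under the knockout label, and rose by 1.98 on the log2 scale (limma adjusted p = 0.00112). NDUFS5 of complex I rose by 1.27 and UQCRQ of complex III by 1.90, while NDUFB7 fell by 0.76, UQCRH fell by 0.63 and ATP5F1D fell by 1.12 on the log2 scale (limma adjusted p from 0.0019 to 0.0432). In the authors' deposited table, of 77 such genes with an adjusted p, 0 were higher and 44 lower, beside 9.55% and 10.3% of all genes there, with a median log2 fold change of -0.40 against 0.02 over all genes. NDUFS5 (-0.59) and UQCRH (-0.43) were lower in the authors' deposited table, and ATP5F1B (-0.02) was not called.

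Nuclear copies of mitochondrial genes share sequence with them, so reads can be split between both places. Of 389 such pseudogenes, 38 had a TPM above 0 and 9 passed the filter, of which 6 were higher and 0 lower, beside 22.9% and 12.4% of all tested genes. In TPM, MTATP6P1 stood at 12.4%, 14.8% and 6.67% of MT-ATP6 in WT and 6.42%, 8.05% and 5.15% under the knockout label. MTND2P28 stood at 10.6%, 16.2% and 6.07% of MT-ND2 in WT and 5.49%, 5.84% and 5.49% under the knockout label. Both rose with the gene they copy, by 1.89 and 1.80 on the log2 scale (limma adjusted p = 0.0401 and 0.0257). MTND4P12 had 2, 1 and 1 reads in WT and 15, 25 and 9 under the knockout label. Its WT reads lie under the floor of 3 reads, so no size of change is given for it. How reads that match both places were counted is not given in the sources used here. These shares therefore do not limit how uncertain the values of MT-ATP6 and MT-ND2 are, and other members with nuclear copies may be affected too.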

How the data were processed

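The labels' protocols give Smart-seq2 for poly(A) libraries and rRNA depletion with a directional kit for the others, from 100 ng of RNA. Per the submitters' processing notes, Trimmomatic, STAR, DESeq2 and the build hg38 were used; their versions, the counting tool, the annotation and any use of strand are not given in the sources used here. TPM per gene was deposited for each rRNA-depleted library. The deposited table taken as the poly(A) comparison holds, per the file headers, the mean normalized count (a pooled signal), the log2 fold change and its SE, the Wald score, and the p-value before and after adjustment. Its directions would all turn if its numerator were the wild type.

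Whole reads were recovered from TPM with GENCODE 29 lengths (93.8% of genes matched): 90.9% of values were whole within 0.02 reads, and all 222 mitochondrial values within 0.05 reads. The recovery step used TPM and length alone. limma 3.58.1 (R 4.3.3, trend, Benjamini-Hochberg at 0.05) was fitted to log2(TPM + 1) over all genes with at least 1 TPM in 3 libraries; this scale understates changes of genes with low TPM. For tRNAs, whose single reads each carry many TPM, libraries at 0 make it overstate changes, and it can differ in sign from the ratio of means (MT-TF 1.37 against a ratio of 0.818). Fitted changes of such tRNAs are therefore given only here and where dependence on the processing is described, and not as sizes of a change. Folds are ratios of mean TPM. A floor of 3 reads per library marked values too low to compare. Figures and other steps used Python 3.11.15, pandas 2.3.3, numpy 2.4.6, scipy 1.17.1 and matplotlib 3.10.9.

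Tested on simulated data for 3 against 2 samples, with 200 of 13638 genes changed by 2 on the log2 scale, the fit recovered 38, all in the right direction, with 0 false calls, and 33 of the 57 with a mean of at least 50 reads. The simulation set the same extra spread for all genes and left out the wide differences between these libraries. It therefore does not give the rate of false calls here. Replicate numbers were not treated as pairing the samples. The members, lists and alternatives were chosen with earlier results of these data known. Named genes are the 37 members, METTL3, and from each list the 3 of highest mean TPM called in each direction (for pseudogenes and rRNA genes, the 3 highest whatever the test). Alternatives were other pseudocounts, filters, scalings and libraries left out, plus removal of a trend on GC content, chosen after seeing the data.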

Additional observations from a re-analysis of the deposited data

How the results depend on the processing

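Between 8 and 13 mitochondrial genes were higher and between 4 and 7 lower over all alternatives for the rRNA-depleted libraries. Leaving out 1 library gave 8 to 13 and 4 to 6. The 13 without WT library 3 include MT-TS1 and MT-TT, which had 0 reads in the remaining WT libraries. The lowest counts came without knockout-labelled library 3, where the lone sample is assumed to vary like the others and MT-TW (limma adjusted p = 0.164) lost its call too, while all-gene counts fell to 1004 higher and 659 lower. At a limit of 0.01 those counts were 1401 and 841, and voom called 3508 lower. Median ratio scaling moved the all-gene median change from 0.41 to 0.12 and the split of calls from 64.8% to 49.7% higher (2415 higher, 2443 lower). On that scaling the summed log2 ratio was 2.15 for heavy-strand mRNA, -1.95 for MT-ND6, -4.59 for rRNA and -2.17 for tRNA, with no change of direction. As shares of recovered reads, rRNA gave -4.51 and tRNA -2.08. Leaving out 1 library gave 2.39 to 2.58 for heavy-strand mRNA, -1.86 to -1.49 for MT-ND6, -4.38 to -4.15 for rRNA and -1.88 to -1.77 for tRNA.

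Direction turned for 4 tRNAs of at most 4 reads, none of them called: MT-TF (voom -0.77; with 1 library left out -0.94 to 2.66), MT-TI (-4.22 to 1.74, 0.19 without wild-type library 2), MT-TT (voom -0.18) and MT-TE (pseudocount 10 TPM -0.18, voom -1.16, GC trend removed -0.37; -0.98 to 3.01). The cause was not tested. The log2 change of MT-TM ran from -12.76 to -6.14 with the pseudocount alone and is no measure of size. With 6 separate libraries MT-TQ (limma adjusted p = 0.0354) and MT-TS1 (0.0407) passed. Same-numbered libraries had correlations of deviations of -0.0205 to 0.0203, and differently numbered ones of -0.0379 to 0.0274. At this depth counting noise can hide a pairing, so none was seen and none can be excluded. With a replicate block on 6 separate libraries 11 mitochondrial genes were higher and 5 lower, against 13 and 6 without it. Of all tested genes, 4037 were higher and 2000 lower with the block, against 4633 and 2247 without it, so the counts fell there too. Every count of lower mitochondrial genes given here for the rRNA-depleted libraries includes MT-TM, whose call supports nothing. For the authors' deposited table an adjusted p under 0.01 gave the same counts, 8 higher and 3 lower. Of the 22 tRNAs, 16 had at most 3 reads in each library, too few to show a difference.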
